A study of Mus musculus with 8 samples.

Results

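XiΔXist fibroblasts carrying a scrambled control hairpin (shSCR) were compared with untreated XiΔXist fibroblasts, that is, transduced and untreated cells labelled with the same genotype. Genes were the units of this comparison. They were chosen as those on chromosomes 1 to 19 that reached 50 reads when the pools and both alleles were added up, and 10032 of the 40935 autosomal gene IDs met this minimum. The question was how cell identity, extracellular matrix, stress and proliferation genes differ once XiΔXist cells have been transduced and selected, and whether a pool whose hairpins target YY1, a transcription factor (shYY1), differs from untreated cells in the same direction.

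The study sequenced RNA from 8 samples of female mouse embryonic fibroblasts (MEFs), 2 each of WT, XiΔXist, XiΔXist shSCR and XiΔXist shYY1. All are labelled as a cross of 129S1/SvImJ and CAST/EiJ. The untreated lines are clones, so that a property of the clone cannot be told apart from its genotype. In the XiΔXist lines the gene of Xist, a long noncoding RNA needed to silence an X chromosome, is deleted on the inactive X (Xi), and both hairpin pools carry this deletion too. According to the methods of the study, hairpins were delivered to XiΔXist MEFs by lentivirus from vectors with puromycin resistance, and cells were then selected in puromycin and recovered in fresh medium before RNA was taken. The shSCR samples share a single scrambled hairpin, whereas the methods name a pair of different hairpins for YY1. The untreated XiΔXist cells received neither virus nor puromycin, so the hairpin, the virus and the selection cannot be told apart.

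Each group is represented by a single column of counts per allele, in which its samples were merged. There is therefore no spread between replicates, no test across samples, and no p-value. Intervals are exact 95% intervals that cover counting error only. The pools held 21342574 autosomal reads in untreated XiΔXist, 18745483 in WT, 1470870 in shSCR and 1472083 in shYY1. Levels are given as CPM, the count of a gene relative to all autosomal reads of its pool, and ratios as log2 of (CPM + 1) in shSCR over untreated XiΔXist, with a gene called at a 4-fold difference. A count of 0 in shSCR allows a level of up to 2.04 CPM, the level of 3 reads, against 0.141 CPM in untreated XiΔXist. A gene reached the minimum from untreated XiΔXist reads alone at 2.34 CPM, but from shSCR reads alone only at 34.0 CPM, so genes low in both pools entered mainly through untreated XiΔXist. A gene with few untreated reads passed only with its shSCR reads, often at a level that already meant a call as higher as counted. Such calls are a description. The sample list of the study gives shorter read pairs for the untreated libraries than for the hairpin libraries, so that read length and sequencing run cannot be told apart from transduction.

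Fibroblasts are the connective tissue cells that secrete collagens and other matrix proteins, and they can take on contractile features. They keep a memory of their place in the body in the form of Hox genes, which encode transcription factors that pattern the embryo along its axis. Interferon response genes are induced when a cell senses a virus, and p53 targets are induced by DNA damage and other stress.

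The genotype and the knockdown were examined first. Xist was read 21 times in untreated XiΔXist and 0 times in shSCR, against 35405 times in WT. Yy1, the target of the shYY1 hairpins, was at 161 CPM in shSCR and 62.5 CPM in shYY1, and at 79.5 CPM in untreated XiΔXist and 82.0 CPM in WT. Of the fibroblast markers, the intermediate filament gene Vim was at 3481 CPM in untreated XiΔXist and 4158 CPM in shSCR, and the collagen receptor gene Ddr2 at 1883 and 604 CPM. The transcription factor gene Twist1 and the proteoglycan gene Lum were at 0 reads in shSCR, and the protease gene Fap was at 0 in both pools. Levels of Twist1 and Lum in untreated cells are not given here, so these counts show no difference between pools. Lists of markers of epithelial, endothelial, haematopoietic, muscle, cartilage and bone, adipocyte, neural, pluripotent and mesothelial cells had between 0 and 2 members each past the read minimum.

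The pools differed widely. Of the 10032 genes, 3017 (30.1%) were at least 4-fold higher and 857 (8.54%) at least 4-fold lower in shSCR than in untreated XiΔXist, and the log2 ratio had a median of 0.70 and a standard deviation of 2.31 over genes. By comparison, the ratio of untreated XiΔXist to WT over the same genes had a standard deviation of 0.68, with 1.03% of genes at least 4-fold higher and 1.30% lower. The ratio of shYY1 to shSCR had a standard deviation of 0.56. The hairpin pools thus lay far from both untreated pools and near each other. In a bulk culture, fewer cells of a kind and less RNA per cell cannot be told apart.

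The difference moved with the base composition of the transcripts. Across the 10032 genes, the rank correlation of the log2 ratio with the G and C (GC) content of the longest transcript was 0.67, against 0.04 with its length. Genes are not independent replicates, and all of these values share the same pools. The same correlation was 0.70 for shSCR against WT, but -0.03 for untreated XiΔXist against WT and -0.12 for shYY1 against shSCR. In the tenth of genes with the highest GC content (56.1% and above) the median level was 1.92 CPM in untreated XiΔXist, 2.03 CPM in WT, 57.8 CPM in shSCR and 53.7 CPM in shYY1. There 86.2% of genes were called higher and 0.697% lower. At so low an untreated level a gene often passed the minimum only with its shSCR reads, which sets a call as higher. Such a gene also has little room for a call as lower, so both shares are a description. In the tenth with the lowest GC content (up to 40.1%) the median level was 38.1 CPM in untreated XiΔXist and 21.1 CPM in shSCR, and 1.29% of genes were called higher and 23.3% lower.

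**Figure D1:**
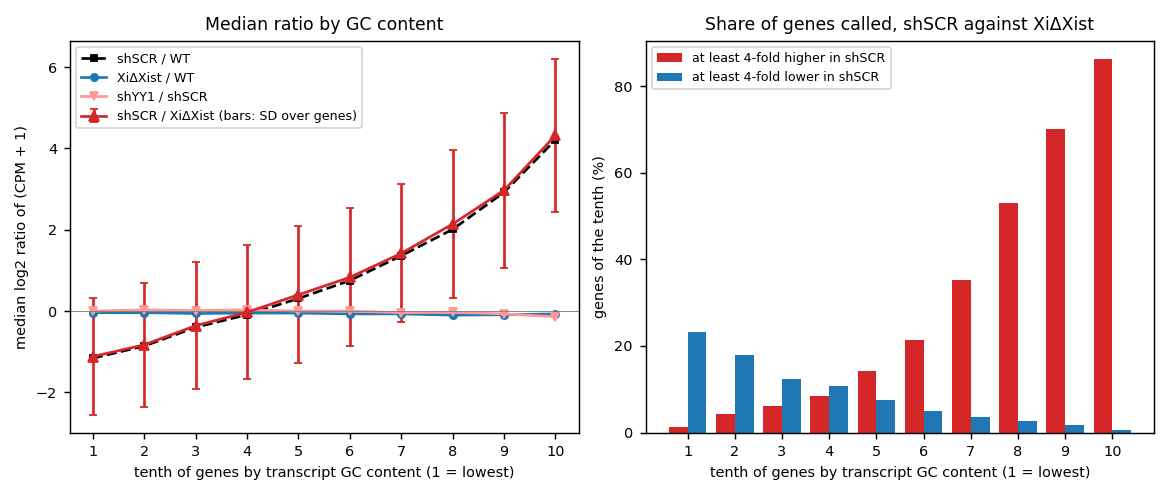
Genes in 10 groups of rising transcript GC content. Left, median log2 ratio of (CPM + 1) for shSCR over untreated XiΔXist, with bars for the standard deviation over genes, and for 3 other pairs of pools. Right, the share of genes (%) at least 4-fold higher or lower in shSCR than in untreated XiΔXist. The median climbs from -1.12 to 4.32 for shSCR over XiΔXist, while XiΔXist over WT and shYY1 over shSCR stay near 0.

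Reference sequence from genes at both ends of the comparison is shown as an example of base composition. Printed is a stretch of 90 coding bases, at the same distance from the start codon in each, of 2 genes from the high end and 2 from the low end of the naming rule given below. G and C are in capitals. The transcripts are of the GENCODE annotation of GRCm38.
Hspg2: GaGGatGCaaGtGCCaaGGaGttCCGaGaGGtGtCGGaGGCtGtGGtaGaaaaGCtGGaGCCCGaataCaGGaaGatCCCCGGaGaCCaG
Hist1h1a: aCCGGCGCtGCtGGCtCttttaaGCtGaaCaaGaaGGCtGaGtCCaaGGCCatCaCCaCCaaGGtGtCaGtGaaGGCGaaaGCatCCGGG
Tfpi: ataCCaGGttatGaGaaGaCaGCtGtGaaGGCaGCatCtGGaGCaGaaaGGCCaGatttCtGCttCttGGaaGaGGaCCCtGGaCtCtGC
Cnih1: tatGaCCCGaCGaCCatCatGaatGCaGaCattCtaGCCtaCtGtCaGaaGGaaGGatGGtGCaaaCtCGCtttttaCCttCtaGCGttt
Over the whole transcript the GC content was 60.9% in Hspg2 and 54.5% in Hist1h1a, which were higher in shSCR, and 39.7% in Tfpi and 44.6% in Cnih1, which were lower. The printed stretches hold 57.8%, 56.7%, 51.1% and 45.6% in the order shown, so a short coding stretch need not show the composition of its transcript, as in Tfpi.

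Because of this, ratios are given on 3 scales. The first is the ratio of CPM as above. The second uses TMM scaling, which takes the bulk of genes as unchanged and moved the median of all genes by -1.37, so that 15.8% of genes were called higher and 25.5% lower. The third subtracts from each gene a running median of the ratio over the genes nearest to it in GC content. On this GC-centred scale 951 genes (9.48%) were called higher and 1111 (11.1%) lower. The share of calls that are higher was thus 77.9% as counted, 38.3% by TMM and 46.1% after GC centring, and the direction of most of the shift depends on the scale. Only 25.9% of the genes called higher as counted were also called higher after centring, against 61.4% of those called lower. On all 3 scales together, 522 genes (5.20%) were called higher and 526 (5.24%) lower. These are referred to below as called on all 3 scales.

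The shYY1 pool differed from untreated cells in the same direction as shSCR. Against the same untreated pool, 29.9% of genes were at least 4-fold higher and 8.08% lower in shYY1. Of the 3017 genes called higher in shSCR, 2751 (91.2%) were called higher in shYY1, where they made up 91.9% of such genes. Of the 857 called lower, 642 (74.9%) were called lower, 79.2% of such genes in shYY1. No gene called in shSCR was called in the opposite direction. After GC centring the shared genes were 766 higher and 893 lower. Both ratios share the untreated pool, so this agreement repeats whatever is particular to that pool, and it does not tell transduction apart from read length. The hairpin pools also had allele shares in common, given below, that untreated XiΔXist did not have. These cannot be told apart from transduction either.

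The genes with the most extreme ratios were named by a rule, as the 10 protein-coding genes with the highest and the 10 with the lowest ratio among those with at least 200 reads that were also past 4-fold in shYY1. Among those at the high end were Hspg2, Hist1h1a, Adcyap1r1, Ptms, Rps15, Actn4, Hist1h4a, Akt1 and Lrp1. All 10 had a GC content above the median of 47.5%. Hspg2 (chr4:137468769-137570630), which encodes the basement membrane proteoglycan perlecan, had 1371 CPM (1311 to 1432) in shSCR and 1348 CPM in shYY1, against 1.03 CPM (0.646 to 1.56) in untreated XiΔXist and 1.71 CPM in WT. That is a 1330-fold difference (876 to 2127), and on the GC-centred scale its log2 ratio was 4.66. Lrp1, an endocytic receptor gene, was at 1821 CPM in shSCR and 1918 CPM in shYY1, against 6.70 CPM in untreated XiΔXist and 6.88 CPM in WT. Rps15, a ribosomal protein gene with near-identical copies elsewhere in the genome and therefore uncertain, was at 458 and 344 CPM in the hairpin pools and at 0.469 and 0.267 CPM in untreated XiΔXist and WT. In 9 of the 10, untreated XiΔXist and WT lay within 4-fold of each other on the scale of CPM + 1, so that at this end both untreated pools were low. The 10 were chosen for a high ratio to untreated XiΔXist, which favours genes low in it. Of the genes named above, all but Lrp1 reached the read minimum only with their shSCR reads. The low untreated level is therefore a description. Hspg2, Lrp1, Ptms, Actn4 and Akt1 overlap other annotated genes, so their reads are uncertain.

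At the low end stood Tfpi, Dynap, Cnih1, Dcn, Chac2, Tnfsf11, Gcnt1, Ccdc122, Il33 and Spp1, all 10 below the median GC content and 7 of them without a read in shSCR. Here the untreated pools were often apart, since 5 of the 10 were at least 4-fold higher in untreated XiΔXist than in WT, against 1.03% of all genes. The 10 were chosen for a low ratio to this same untreated pool, which favours genes high in it. The excess over WT is therefore a description. Spp1 (chr5:104435118-104441050), the gene of the secreted phosphoprotein osteopontin, was at 16730 CPM in untreated XiΔXist, 1842 CPM in WT, 267 CPM (241 to 295) in shSCR and 346 CPM in shYY1. It was 62.6-fold lower (56.7 to 69.3) in shSCR than in untreated XiΔXist. Il33 (chr19:29925114-29960718), which encodes an alarmin cytokine, had 1358 reads or 63.6 CPM in untreated XiΔXist, 10 reads in WT, and 0 in both hairpin pools, at least 31.2-fold lower. Dynap was at 136 CPM in untreated XiΔXist and 2.51 CPM in WT, with no read in either hairpin pool. Tnfsf11, the gene of the osteoclast differentiation factor RANKL, was at 81.4 CPM in untreated XiΔXist, 5.33 CPM in WT, 0 in shSCR and 3.40 CPM in shYY1. Dcn, the gene of the collagen-binding proteoglycan decorin, was at 103 CPM in untreated XiΔXist, 32.6 CPM in WT, 0 in shSCR and 0.679 CPM in shYY1, at least 50.4-fold lower in shSCR. Tfpi, a coagulation inhibitor gene, was at 139 CPM in untreated XiΔXist and 178 CPM in WT, against 0 and 1.36 CPM. In Tfpi the untreated pools were alike and the hairpin pools low. Spp1, Cnih1, Chac2 and Ccdc122 overlap other annotated genes, so their reads are uncertain.

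**Figure D2:**
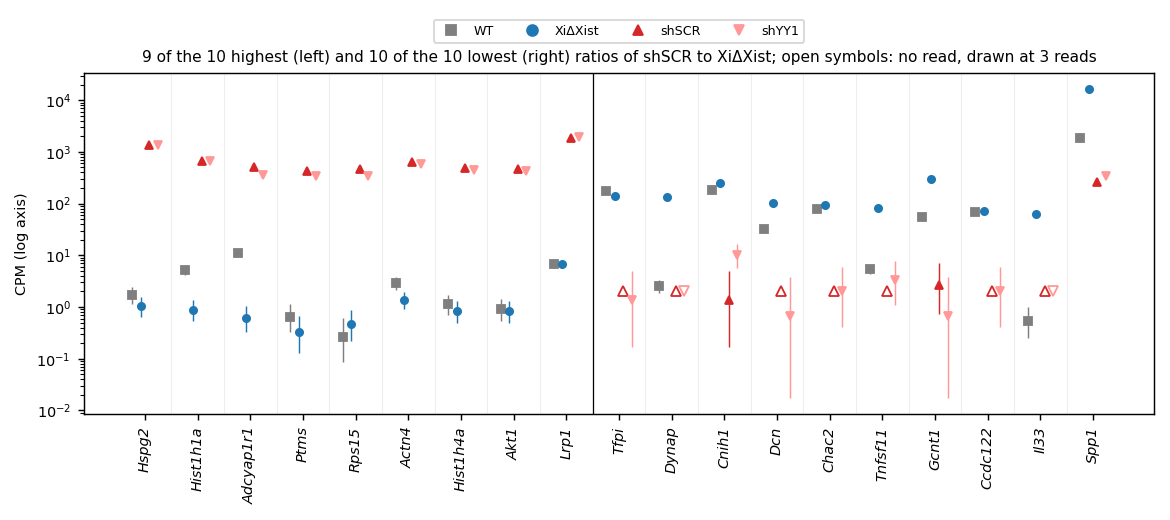
Levels (CPM, log axis) in the 4 pools of 9 of the 10 genes with the highest and the 10 with the lowest ratio of shSCR to untreated XiΔXist. Bars are exact 95% counting intervals and open symbols mark pools without a read, drawn at the level of 3 reads. On the left both untreated pools sit low, and on the right Spp1, Il33, Dynap, Tnfsf11 and Gcnt1 are higher in XiΔXist than in WT.

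The same rule applied to the GC-centred ratio, a choice made after the values were seen, named other genes. Its high end held Zfpm2, Timp3, Efemp1, Adcyap1r1, Rps26, Hist1h2bc, Hist1h1a, Cfap43, Cd24a and Igf1r. Timp3 (chr10:86300372-86349506), a tissue inhibitor of metalloproteinases, was at 1.64 CPM in untreated XiΔXist, 454 CPM in shSCR, 420 CPM in shYY1 and 649 CPM in WT. Efemp1, which encodes the matrix glycoprotein fibulin-3, was at 0.609 CPM in untreated XiΔXist, 182 CPM in shSCR, 354 CPM in shYY1 and 294 CPM in WT. Cd24a, a cell surface glycoprotein gene, was at 3.98 CPM in untreated XiΔXist, 149 CPM in shSCR, 168 CPM in shYY1 and 228 CPM in WT. A rule that picks high ratios favours genes low in untreated XiΔXist, so what follows is a description. Timp3, Efemp1 and Cd24a were near absent in untreated XiΔXist, and both hairpin pools were nearer to WT than to the untreated cells of their own genotype. Against WT their log2 ratios in shSCR were -0.51, -0.69 and -0.61, so their higher level in shSCR holds against untreated XiΔXist and turns around against WT. Zfpm2, a transcriptional cofactor gene, differed from this, at 0.515 and 2.40 CPM in untreated XiΔXist and WT and 175 and 174 CPM in shSCR and shYY1. The GC-centred low end held Tusc1, Zcchc3, Tmem158, Arf6, Dynap, Cdyl2, Ism1, Hoxd8, Cnih1 and Hsd3b6. Of these, 5 were at least 4-fold higher in untreated XiΔXist than in WT, against 1.03% of all genes. They too were chosen by their ratio to untreated XiΔXist. Timp3, Zfpm2, Cfap43, Arf6, Hoxd8 and Cnih1 overlap other annotated genes, so their reads are uncertain.

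Cell identity was followed first. Counts called in this and the following lists stand beside the shares over all genes. These were 30.1% higher and 8.54% lower as counted, and 9.48% and 11.1% after GC centring. On all 3 scales they were 5.20% and 5.24%. Of 29 fibroblast regulators and surface markers, 18 passed the read minimum, with 3 called higher, 2 lower and a median log2 ratio of 0.48, or -0.02 after GC centring. On all 3 scales 0 were called higher and 2 lower, Prrx1 and Dpt, so the list as a whole showed no shared direction. Prrx1, a mesenchymal transcription factor gene, was called lower on all 3 scales, at 703 CPM in shSCR against 3305 CPM in untreated XiΔXist and 2765 CPM in WT (4.70-fold). In shYY1 it was at 933 CPM and did not pass 4-fold. Dpt, which encodes the matrix protein dermatopontin and is named after its values were seen, was called lower as well, with 87 reads in untreated XiΔXist and 0 in shSCR, but WT held 1145 reads. Tcf4 was at 266 CPM in untreated XiΔXist and 189 CPM in shSCR, and Vim and Ddr2 were not called. Of the 29 genes, 7 were without a read in untreated XiΔXist and 6 in shSCR.

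Positional genes were examined next. Of 57 positional and limb regulators, 18 passed the minimum, and 5 were called higher and 2 lower, shares close to the 30.1% and 8.54% of all genes, with a median of -1.81 after GC centring. The members with the most reads were lower or level. Tbx18, a mesenchymal T-box factor gene, was at 23.1 CPM in shSCR and 25.1 CPM in shYY1 against 149 CPM in untreated XiΔXist and 181 CPM in WT, and was called lower on all 3 scales. Shox2, a limb homeobox gene, was at 29.2 CPM against 99.7 CPM and Tbx15 at 197 CPM against 326 CPM. Called higher on all 3 scales were Hoxa9, Hoxb7, Hoxb9 and Tbx3, named here after their values were seen. Hoxa9, Hoxb7 and Hoxb9 had 64, 53 and 96 reads in shSCR and 0, 2 and 1 in untreated XiΔXist. They passed the minimum through shSCR alone, so their call as higher as counted was set by the filter and is a description.

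Hox genes were therefore laid out by paralogue group, their order along the cluster, also after the values were seen. Of the 39 Hox genes, 24 were read in shSCR and 13 in untreated XiΔXist, although that pool was 14.5 times as deep. Hoxb9 (chr11:96271457-96276595) had 96 reads or 65.3 CPM (52.9 to 79.7) in shSCR and 52.3 CPM in shYY1, but 1 read in untreated XiΔXist, and 775 reads or 41.3 CPM in WT. Hoxb7 (chr11:96286623-96290162) was at 36.0 CPM in shSCR and 27.9 CPM in shYY1, with 2 reads in untreated XiΔXist and 25.8 CPM in WT. For this pair of genes the hairpin pools and WT were alike and untreated XiΔXist stood apart. Hoxa9 (chr6:52223100-52231089) had 64 reads in shSCR and 63 in shYY1, with 0 in untreated XiΔXist and 4 in WT, so it was at least 310-fold higher in shSCR than in untreated XiΔXist and the untreated pools were both near 0. Hoxc10, Hoxa10, Hoxc5 and Hoxb5 had 27, 23, 28 and 20 reads in shSCR and none in untreated XiΔXist. In the opposite direction, Hoxd8 (chr2:74704615-74707933) had 935 reads or 43.8 CPM in untreated XiΔXist and 34.7 CPM in WT, against 4.08 CPM in shSCR and 11.5 CPM in shYY1. Summed over the 27 genes of groups 5 to 13, the level was 44.9 CPM in untreated XiΔXist, 117 CPM in WT, 290 CPM in shSCR and 280 CPM in shYY1, a 6.45-fold difference (5.74 to 7.23) between shSCR and untreated XiΔXist. Most of the untreated XiΔXist reads were those of Hoxd8. Over the other 26 genes, a choice made after the values were seen, it was 1.12 CPM in untreated XiΔXist, 82.1 CPM in WT, 286 CPM in shSCR and 268 CPM in shYY1. For the 12 genes of groups 1 to 4 it was 24.1, 16.0, 59.8 and 60.5 CPM in the same order. The transcripts of Hoxa9, Hoxb7 and Hoxb9 have a GC content of 49.5%, 51.2% and 52.8%, and their GC-centred log2 ratios were 4.27, 3.33 and 3.72. Hoxa9, Hoxd8, Hoxc10, Hoxc5 and Hoxb5 overlap other annotated genes, so their reads are uncertain.

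**Figure D3:**
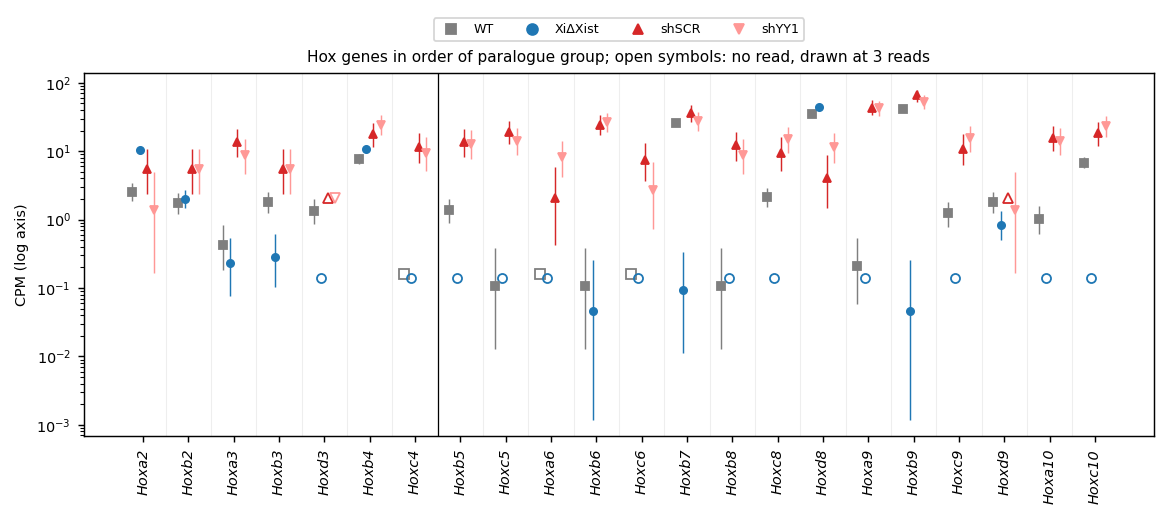
Levels (CPM, log axis) of the Hox genes with at least 10 reads in some pool, ordered by paralogue group, with a line between groups 4 and 5. Bars are exact 95% counting intervals and open symbols mark pools without a read, drawn at the level of 3 reads. From group 5 on, XiΔXist is at or near 0 for all genes shown except Hoxd8 and Hoxd9, while shSCR and shYY1 hold reads for most of them.

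The matrix was examined next. Of 26 collagen genes, 17 passed the minimum, and 9 were called higher and none lower, with a median log2 ratio of 3.65 as counted, 2.20 by TMM and -0.26 after GC centring, where 2 were called higher and 3 lower. The median GC content of these 17 was 55.7%. Col1a1 (chr11:94936224-94953042), which encodes the main chain of type I collagen and is named after its values were seen, was at 1287 CPM in shSCR and 1828 CPM in shYY1, against 12.3 CPM in untreated XiΔXist and 28.4 CPM in WT. Its partner chain Col1a2 was at 1752 CPM in shSCR and 2714 CPM in shYY1, against 1025 CPM and 2126 CPM. The chains assemble into the same fibril, yet the ratio of shSCR to untreated XiΔXist was 104-fold (91.8 to 119) for the first and 1.71-fold (1.64 to 1.78) for the second. On the other scales Col1a2 turned, with a log2 ratio of -0.69 by TMM and -2.69 after GC centring, whereas Col1a1 was at 5.14 and 2.01. Their transcripts hold 58.9% and 55.7% GC. Col5a2 was at 1471 CPM against 1565 CPM, Col8a1 at 726 CPM against 1002 CPM, and Col12a1 at 420 CPM against 846 CPM, none of them called. The 4 collagen genes with the most reads were therefore within 4-fold as counted.

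Of 40 matrix glycoproteins and proteoglycans, 26 passed, with 11 called higher and 3 lower, and 7 and 7 after centring. Besides Spp1 the most read were Thbs1, the gene of thrombospondin, at 1904 CPM in shSCR against 3983 CPM, Nid1 at 1012 CPM against 2043 CPM, and Ltbp1 at 1154 CPM against 1300 CPM. Hspg2, Efemp1, Efemp2, Ecm1 and Sparc were called higher and Spp1, Dcn and Lama2 lower on all 3 scales. Sparc, a collagen-binding glycoprotein gene, was at 199 CPM in shSCR, 316 CPM in shYY1, 4.36 CPM in untreated XiΔXist and 6.88 CPM in WT. Of 20 genes of collagen processing and crosslinking, 13 were called higher as counted and 3 after centring. Lox, which crosslinks collagen, was at 981 CPM against 1745 CPM, Plod2 at 148 CPM against 286 CPM, and P4ha1 at 218 CPM against 327 CPM. Serpinh1, the collagen chaperone gene, was at 521 CPM against 590 CPM, although its GC content of 56.4% places it in the tenth of genes where most were called higher.

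Among 21 matrix proteases and inhibitors, 10 were called higher and 5 lower, and 5 and 6 after centring. The inhibitor genes Timp2 and Timp3 were called higher on all 3 scales, Timp2 at 1128 CPM in shSCR and 1185 CPM in shYY1 against 40.4 CPM in untreated XiΔXist and 64.5 CPM in WT. Adamts5, a proteoglycan-cleaving protease gene, was called higher too, at 433 CPM in shSCR and 964 CPM in shYY1 against 36.1 CPM in untreated XiΔXist and 1444 CPM in WT. Called lower were the stromelysin genes Mmp3 and Mmp10, Mmp19 and the plasminogen activator gene Plau. Mmp3 (chr9:7445822-7455975) had 1105 reads or 51.8 CPM in untreated XiΔXist, 6 reads in WT and 0 in both hairpin pools, at least 25.4-fold lower. Plau was at 746 CPM in untreated XiΔXist, 178 CPM in shSCR, 168 CPM in shYY1 and 55.4 CPM in WT, so it was lower in shSCR than in untreated XiΔXist but higher than in WT. Ctsb, a lysosomal protease gene, was at 148 CPM against 505 CPM and Ctsl at 185 CPM against 91.4 CPM. Against WT, none of the 21 genes was called lower and 7 were called higher as counted, and 2 each way after GC centring.

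Contractile genes and targets of SRF and YAP, which respond to tension on the cell, were in part higher. Of 19 past the minimum, 13 were called higher and none lower as counted, 5 were called higher on all 3 scales, and the median was 2.76 as counted, 1.30 by TMM and 0.57 after GC centring. After centring 6 were called higher and 3 lower (Amotl2, Axl and Srf, named after their values were seen). Against WT after centring 3 were called higher and 4 lower, with a median of -0.07. Acta2 (chr19:34241090-34255590), the smooth muscle actin gene that marks contractile fibroblasts, was at 712 CPM (669 to 756) in shSCR and 977 CPM in shYY1, against 9.14 CPM (7.90 to 10.5) in untreated XiΔXist and 54.4 CPM in WT, a 77.9-fold difference (66.8 to 91.2). Ccn2, a YAP target that encodes a secreted growth factor, was at 312 CPM in shSCR and 276 CPM in shYY1, against 25.7 CPM and 75.3 CPM. Acta2 and Ccn2 hold 49.6% and 49.2% GC, close to the middle of all genes, and their GC-centred log2 ratios were 4.92 and 2.41. Flnc, Myl9 and Tpm2 were called on all 3 scales as well. These 5 genes are named after their values were seen. Of those named by depth, Tpm1 was at 1768 CPM against 387 CPM, Actn1 at 772 CPM against 519 CPM, Tpm4 at 2011 CPM against 3092 CPM, and Axl, a YAP target that encodes a receptor kinase, at 1458 CPM against 1862 CPM.

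**Figure D4:**
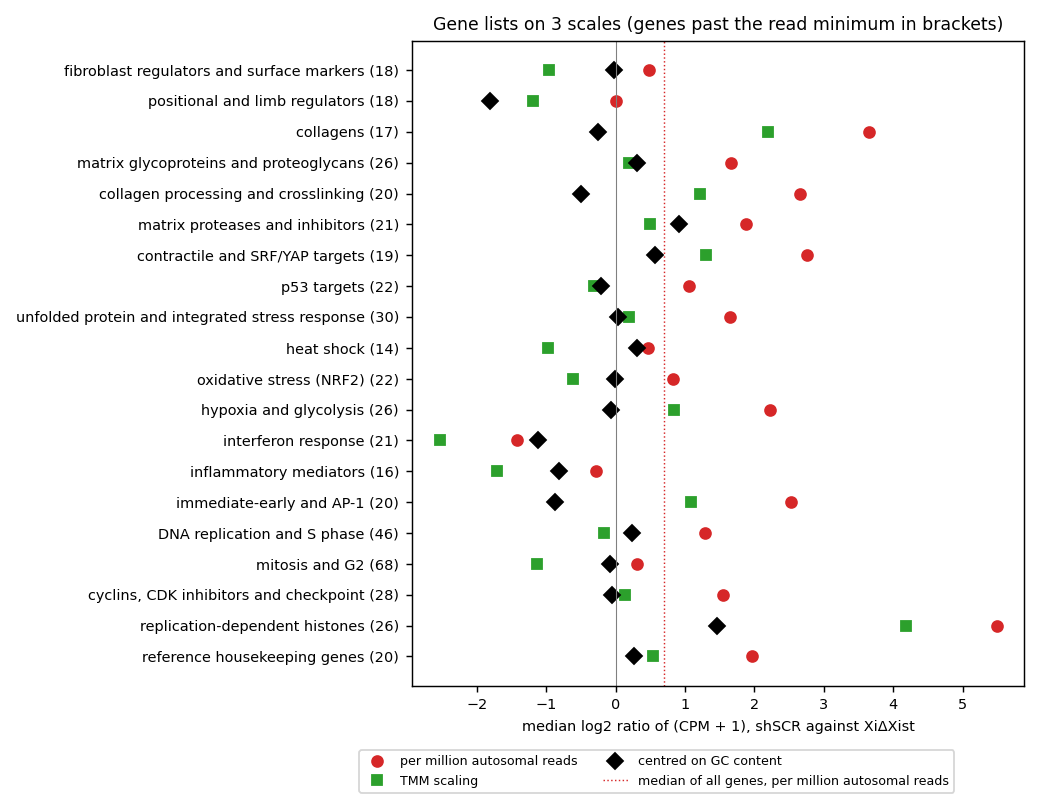
Median log2 ratio of (CPM + 1), shSCR over untreated XiΔXist, of each gene list on 3 scales, with the number of genes past the read minimum in brackets and a dotted line at the median of all genes (0.70). The medians of interferon and inflammatory genes lie below 0 on all 3 scales, and that of positional genes at or below 0. Medians of histones, contractile genes, matrix glycoproteins, matrix proteases, the unfolded protein response and housekeeping genes lie above 0 on all 3. Those of collagens, collagen processing, hypoxia, immediate-early genes and cyclins lie above 0 as counted and by TMM but below 0 after GC centring.

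Some interferon response genes were lower in the transduced cells. Of 46 genes, 21 passed the minimum, and 9 were called lower on all 3 scales, beside 3 called higher as counted and none after centring. Of the 9, 4 had no read in shSCR and passed through their reads in untreated XiΔXist, so that the count is a description of the genes that passed. The median was -1.42 as counted, -2.54 by TMM and -1.12 after centring, against 0.70 as counted over all genes. Over the 11 genes with at least 33 CPM in either pool, the median as counted was 0.16, so the lower median rests on genes below that level. Ifit1, which binds viral RNA, was at 65.3 CPM in untreated XiΔXist, 11.6 CPM in WT, 5.44 CPM (2.35 to 10.7) in shSCR and 4.76 CPM in shYY1. Ifit2 was at 205 CPM in untreated XiΔXist and 216 CPM in WT, against 76.1 and 69.3 CPM in shSCR and shYY1, and was not called. Rtp4 had 436 reads in untreated XiΔXist, 26 in WT, 0 in shSCR and 2 in shYY1, and the chemokine gene Cxcl10 had 482, 171, 0 and 4 reads in the same order. Eif2ak2, the gene of the kinase PKR, was at 57.1 CPM against 108 CPM. Samhd1, which limits viral replication, was 2.20-fold higher in shSCR, with a log2 ratio of 1.13 as counted and -0.02 after GC centring. Ifit1 and Rtp4 were higher in untreated XiΔXist than in WT, and the 3 genes of the list that differed 4-fold between the untreated pools were all higher in XiΔXist. Against WT the list had 3 genes called lower and 4 higher in shSCR, with a median of -0.66, and after GC centring 5 called lower and none higher, with a median of -0.75. In shYY1, 6 of the 9 were also called lower on all 3 scales. Rtp4 and Cxcl10 are named after their values were seen.

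Inflammatory mediators followed the same direction in the genes read most. Il1rl1, the receptor of IL-33, was at 3640 CPM in untreated XiΔXist, 610 CPM in WT, 295 CPM in shSCR and 380 CPM in shYY1, or 12.3-fold lower (11.2 to 13.6) in shSCR. Its ligand gene Il33 is the one described above, so that receptor and ligand were both highest in untreated XiΔXist. Cxcl5, a neutrophil chemokine gene, was at 2729 CPM in untreated XiΔXist, 948 CPM in WT, 126 CPM in shSCR and 141 CPM in shYY1. Ptgs2, the gene of cyclooxygenase 2, was at 625 CPM against 2733 CPM and Vcam1 at 323 CPM against 916 CPM. Over the 16 genes past the minimum, 4 were called higher and 5 lower, and on all 3 scales none higher and 4 lower. Against WT, 3 were called higher and 2 lower as counted, and 2 and 3 after GC centring.

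Of 30 genes of the unfolded protein and integrated stress response, 11 were called higher and 1 lower as counted, but the median after centring was 0.03 and no gene was called on all 3 scales. Canx, an endoplasmic reticulum chaperone gene, was at 595 CPM in shSCR against 3082 CPM, Hsp90b1 at 207 CPM against 744 CPM, Hspa5 at 411 CPM against 603 CPM, and Calr at 515 CPM against 373 CPM. Of 22 p53 targets, 9 were called higher and 2 lower, beside 30.1% and 8.54% of all genes. Their median was 1.06 as counted, -0.32 by TMM and -0.22 after centring. Ccng1, the p53 target read most, was at 307 CPM in shSCR and 468 CPM in shYY1 against 2296 CPM in untreated XiΔXist and 2010 CPM in WT, called lower on all 3 scales. Mdm2, which encodes the ubiquitin ligase of p53 and is named after its values were seen, was called higher, with 40 reads in shSCR against 12 in the deeper untreated pool. Mdm2 reached the minimum only with its shSCR reads, so its call as counted was set by the filter and is a description. Trp53, the p53 gene itself and also named after its values were seen, was at 155 CPM in shSCR and 156 CPM in shYY1 against 4.08 CPM and 5.01 CPM in untreated XiΔXist and WT.

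Of 14 heat shock genes, 4 were called higher and 1 lower, shares close to the 30.1% and 8.54% of all genes. The median was 0.46 as counted, -0.98 by TMM and 0.31 after centring. Hspe1 was at 269 CPM in shSCR against 901 CPM, Hspa4 at 413 CPM against 770 CPM, Dnaja1 at 89.7 CPM against 468 CPM, and Hsp90aa1 at 741 CPM against 626 CPM. Of 22 genes of the oxidative stress response to NRF2, 9 were called higher and 2 lower, beside 30.1% and 8.54% of all genes, and 1 and 3 after centring. Txnrd1, a thioredoxin reductase gene, was at 1168 CPM against 629 CPM, Prdx1 at 447 CPM against 268 CPM, Sqstm1 at 192 CPM against 207 CPM, and Gclm, for glutathione synthesis, at 35.4 CPM against 207 CPM. Of 26 hypoxia and glycolysis genes, 14 were called higher and 2 lower, with a median of 2.22 as counted and -0.07 after centring. The glycolytic enzyme gene Ldha, named after its values were seen, was called higher on all 3 scales, at 734 CPM in shSCR and 611 CPM in shYY1 against 30.7 CPM and 27.6 CPM. Pkm, also glycolytic, was at 1364 CPM against 45.4 CPM but 0.80 after centring, and Hif1a, which encodes the oxygen-sensitive factor, at 196 CPM against 503 CPM.

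Among 20 immediate-early and AP-1 genes, 11 were called higher and 1 lower, but the median was 2.52 as counted and -0.88 after centring. Dusp6, a feedback inhibitor of ERK signalling, was at 35.4 CPM in shSCR and 48.9 CPM in shYY1 against 400 CPM in untreated XiΔXist and 151 CPM in WT, or 11.3-fold lower (8.61 to 15.2). Fosl2, an AP-1 subunit gene, was at 542 CPM against 76.3 CPM, Klf10 at 107 CPM against 233 CPM and Klf6 at 67.3 CPM against 83.9 CPM. Myc and Fosl1, named after their values were seen, were called higher on all 3 scales in shSCR, Myc at 90.4 CPM in shSCR and 50.3 CPM in shYY1 against 32 reads in untreated XiΔXist. Myc reached the minimum only with its shSCR reads, so its call as counted was set by the filter and is a description.

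Proliferation genes showed no shared direction after GC centring, and on the other scales their direction depended on the scale. Of 46 genes of DNA replication, 16 were called higher and 2 lower as counted, beside 30.1% and 8.54% of all genes. By TMM 9 were called higher and 10 lower, and after centring 2 and 2. The medians were 1.28 as counted, -0.17 by TMM and 0.23 after centring. Uhrf1, which maintains DNA methylation, was at 332 CPM against 405 CPM, Mcm6 at 254 CPM against 433 CPM, Mcm4 at 165 CPM against 560 CPM, and Ccne2, an S phase cyclin gene, at 69.3 CPM against 456 CPM. Of 68 genes of mitosis, 15 were called higher and 9 lower as counted, with a median of 0.31, below the median of all genes, and -0.09 after centring. By TMM 8 were called higher and 23 lower, with a median of -1.14 against -0.66 over all genes. Top2a was at 1029 CPM against 1634 CPM, Anln at 442 CPM against 988 CPM, Smc2 at 203 CPM against 888 CPM and Smc4 at 366 CPM against 1985 CPM. On all 3 scales 5 mitotic genes were called higher and 6 lower. Plk1 and Cdc20, named after their values were seen, act in the same division and had 184 and 215 reads in shSCR against 32 and 19 in the deeper untreated XiΔXist pool. Both reached the minimum only with their shSCR reads, so their call as counted was set by the filter and is a description. Plk4, which starts centriole duplication and was named likewise, was at 2.72 CPM against 89.7 CPM. The first pair hold 56.0% and 55.6% GC and Plk4 42.1%. Of 28 cyclin, CDK inhibitor and checkpoint genes, 12 were called higher and 1 lower as counted, 5 and 8 by TMM, and 2 and 4 after centring. Cdk6 was at 404 CPM against 136 CPM, Cdkn1b at 102 CPM against 157 CPM, Atm at 197 CPM against 372 CPM and Rbl1 at 89.1 CPM against 200 CPM.

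Replication-dependent histones, whose messages as a class end without a poly(A) tail, stood highest of all lists. Of 54 autosomal genes, 26 passed, with 23 called higher and 1 lower as counted, and 8 and 2 after GC centring. The median was 5.49 as counted, 4.18 by TMM and 1.46 after centring, and their median GC content was 56.4%. Summed over the list, the level was 386 CPM in untreated XiΔXist, 402 CPM in WT, 6192 CPM in shSCR and 5720 CPM in shYY1. Hist1h1a (chr13:23763666-23764406), a linker histone gene, was at 656 CPM (615 to 699) in shSCR and 666 CPM in shYY1, against 0.89 CPM (0.536 to 1.39) in untreated XiΔXist and 5.17 CPM in WT. Hist1h1e was at 737 CPM in shSCR and 723 CPM in shYY1, against 33.2 CPM and 31.0 CPM. The core histone genes Hist1h2bb, at 373 CPM against 188 CPM, and Hist1h3c, at 362 CPM against 37.8 CPM, have near-identical copies and are uncertain. Most of these genes lie on chromosome 13, and the 3 past the minimum outside chromosomes 12, 13 and 14, whose allele shares in shSCR are given below, had a median of -0.08. Small nuclear RNA, another class without a poly(A) tail, made up 0.447% of autosomal reads in untreated XiΔXist and 0.721% in shSCR. Whether RNA without such a tail was kept to a different degree in the libraries was not tested.

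Genes often used as a reference were not level. Of 20 housekeeping genes, 10 were called higher and 2 lower, and on all 3 scales 6 were called higher and 1 lower. Actb, the cytoplasmic actin gene, was at 2130 CPM in untreated XiΔXist and 1974 CPM in WT, against 162 CPM in shSCR and 145 CPM in shYY1, or 13.1-fold lower (11.5 to 15.0), on all 3 scales. Hsp90ab1, a cytosolic chaperone gene, went the other way on all 3 scales, at 170 and 209 CPM against 2858 and 2665 CPM. Both have near-identical copies and are uncertain, as do Hist1h4a, Hsd3b6, Hsp90aa1, Mcm4 and Pkm above. Tfrc, the transferrin receptor gene, was at 364 CPM against 1509 CPM and B2m at 381 CPM against 928 CPM.  Processed pseudogenes held 1.03% of autosomal reads in untreated XiΔXist and 2.37% in shSCR.

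Among markers of other cell types, few genes reached the minimum. The summed level was 2.06 CPM in untreated XiΔXist and 44.2 CPM in shSCR for the epithelial list, 82.4 and 251 CPM for cartilage and bone, and 249 and 797 CPM for the neural list. Of 25 epithelial markers, 1 passed, the desmosome gene Dsp, at 21.1 CPM in shSCR and 8.15 CPM in shYY1 against 1.41 CPM in untreated XiΔXist, with 21 of 25 at 0 in shSCR. Of 18 endothelial markers, Flt1 alone passed, at 32.6 CPM against 6.47 CPM and 38.5 CPM in WT. Of 19 haematopoietic markers, Cd53 was lower, with 371 reads in untreated XiΔXist, 6 in WT and 0 in both hairpin pools, and Cd14 was at 9.52 CPM against 2.90 CPM. Their summed level was 21.8 CPM in untreated XiΔXist and 36.7 CPM in shSCR. Of the muscle markers, Tnnt2 was at 27.9 CPM against 0.422 CPM and Pax3 at 23.8 CPM against 30.6 CPM. Dsp and Tnnt2 reached the minimum only with their shSCR reads, so their higher level is a description. The skeletal regulator genes Sox9 and Runx2 were at 192 and 53.7 CPM against 60.6 and 20.4 CPM. The neural list was led by Nes, at 642 CPM against 208 CPM, and Map2, at 145 CPM against 39.3 CPM, both also read in fibroblasts here. Of the adipocyte list, Lpl was at 56.4 CPM against 60.0 CPM and Fabp4 had 1 read against 98. Lhx9, a gonadal and limb factor gene, was at 29.9 CPM against 46.8 CPM, and no pluripotency marker passed. The part of such cells in the differences above was not tested.

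Position in the genome moved with the ratio on chromosome 14. The median GC-centred log2 ratio of its 352 genes was -0.87, whereas the other autosomes had medians between -0.31 and 0.28. Among its genes read from both alleles in untreated cells, the pooled share of 129 reads in shSCR was 2.56%. It was 27.6% on chromosome 12 and 69.7% on chromosome 13, where most histone genes lie, against median shares per gene of 50.7% and 52.3% in untreated XiΔXist. Of the 10 genes with the lowest ratio, Cnih1, Tnfsf11 and Ccdc122 lie on chromosome 14, and so do Plau and Ctsb. Their lower levels therefore stand beside a lower median of that chromosome as a whole. The part of the chromosome in these values was not tested.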

How the data were processed

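The authors merged the replicates of a group, aligned reads with TopHat to the mouse genome (GRCm38, mm10) masked at strain differences, filtered by mapping quality, split reads by allele with SNPsplit and counted them per gene with featureCounts (version 1.6.3 per the labels). The deposited values are raw counts. Annotation release and strand setting are not given in the sources used here. Only reads over a strain difference are counted, and longer reads cover more of them, so the counts of a gene depend on read length.

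GENCODE M21 (GRCm38) named 45143 of 46078 gene IDs. CPM used autosomal reads, a pseudocount of 1 CPM and a 4-fold call. TMM factors came from edgeR 4.0.16 and size factors from DESeq2 1.42.0, with no fitted test. GC centring was added after the data were seen. In each of 29 gene lists the 4 members with most reads were named, besides Yy1, Xist and the extremes, and genes named beyond that were chosen after their values were seen. Members and lists were chosen with earlier results of these data known. Genes given as uncertain have a transcript elsewhere matching 50% of theirs at 90% identity (blastn 2.17.0) or overlap another gene. Copies were searched only for the 128 genes named by rule, so other genes named after their values were seen were not checked for them. Of 128 named genes, 60 overlap another gene, and their reads are uncertain also where this is not repeated. Calls and intervals were tested on simulated data. A few named genes are not reported here.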

Additional observations from a re-analysis of the deposited data

Results flagged for a closer look

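Outside the autosomes, mitochondrial genes made up 36.7% of all allelic reads in shSCR and 39.5% in shYY1, against 22.3% in untreated XiΔXist and 20.2% in WT. This was noted because it lies outside the comparison above.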

How the results depend on the processing

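No paired analysis was possible because each group is a single column in which its samples were merged, and for the same reason no sample could be left out in turn. Of 3017 genes called higher (30.1%), the count became 1909 at 8-fold, 1620 with DESeq2 size factors and 1589 with TMM. Other settings changed the set of genes, so their shares are given. The count was 1377 of 6907 (19.9%) with a minimum of 200 reads and 5080 of 18786 (27.0%) with no minimum other than 1 read. It was 1272 of 4071 (31.2%) over genes that overlap no other gene and 1260 of 5059 (24.9%) with CAST reads only. GC centring, added after the data were seen, gave 951 (9.48%), with WT in place of untreated XiΔXist 816, and with shYY1 in place of shSCR 936. With at least 33 CPM in either pool it gave 559 of 6676 (8.37%). Of 857 called lower (8.54%), the count became 2060 at 2-fold, 287 at 8-fold, 2522 with DESeq2 and 2558 with TMM. It was 502 of 9212 (5.45%) with at least 10 reads in each pool and 413 of 4071 (10.1%) over genes that overlap no other. The number of genes called in the same direction in shYY1 was 5867 at 2-fold, 1950 at 8-fold and 1659 after centring. Among medians and ratios past 4-fold as counted, centring turned the sign of the medians of collagens (-0.26), collagen processing (-0.50), hypoxia and glycolysis (-0.07) and immediate-early genes (-0.88), and the ratio of Hist1h3c (-0.40). Leaving out chromosomes 12, 13 and 14 turned the histones (-0.08). With WT in place of untreated XiΔXist, again among those past 4-fold, the endothelial list and its only gene Flt1 (-0.23), Cd24a (-0.61), Efemp1 (-0.69), Timp3 (-0.51) and Plau (1.67) turned. Smaller medians and ratios turned as well, among them p53 targets after centring (-0.22) and the interferon list at 33 CPM or more (0.16). The other 36 counts stayed within 1.5 times. The shallow hairpin pools limit the values of genes with few reads.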
